A study of Mus musculus with 6 samples.

Results

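Predicted genes and pseudogenes make up a sizeable part of a mouse count table, and 462 of them were expressed in these kidneys. They were taken by symbol and by level. A symbol had to be Gm followed by digits only, or end in -ps or in -ps and digits. Its mean had to reach 2 CPM (counts for each 1000000 counted in the library) in the 3 db/m or the 3 db/db libraries. Of 24434 symbols in the table, 5256 were of this kind, and 446 Gm symbols and 16 -ps symbols passed. Members were thus selected on their measured level in each group. The RefSeq gene table of GRCm38.p6 held 457 of them and typed 323 as long noncoding RNA, 102 as protein coding, 21 as pseudogene and 5 as transcribed pseudogene, so most members were not pseudogenes.

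The symbol Gm marks a gene model that was found by computation or from cloned cDNA and has not been given a functional name. A processed pseudogene is a DNA copy of a spliced messenger RNA, and its sequence can stay so close to that of the coding gene that short reads match both. A long noncoding RNA is often transcribed from the strand opposite a coding gene or from the same promoter region.

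The db/db mouse lacks a working long form of the leptin receptor and becomes obese and diabetic, while the db/m mouse carries 1 db allele and serves as the lean control. Whole kidneys of mice on normal chow were used, with 3 db/db and 3 db/m libraries by genotype label. Both groups thus carry the db allele. The sources used here give no strain, sex or age, and do not say that libraries of a group come from separate animals. The p-values then describe only how these libraries spread, which may be technical.

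From here on CPM is scaled by TMM factors, values are means ± SD (n = 3), and a fold change is positive where db/db was higher. Total counts per library were 25937756 to 35931140, and a count of 0 allows a level of up to 3 counts, or 0.0759 to 0.120 CPM, for counting error only. Lepr, the gene of the receptor, did not pass the test (log2 fold change 0.56, adjusted p = 0.246), and a count per gene does not separate its forms. Summed over 5 proximal tubule markers, the level was 7056 to 9303 CPM in the db/m and 8939 to 11199 CPM in the db/db libraries. Adipocyte markers summed to 65.1 CPM in db/m replicate 3 and 133 CPM in db/db replicate 3, against 0.436 to 5.12 CPM in the other 4. B and plasma cell markers summed to 14.1 to 57.6 CPM in db/m and 5.22 to 8.29 CPM in db/db libraries, but without Jchain, the 1 of them that fell, to 5.34 to 8.72 and 3.69 to 5.48 CPM, which overlap. Adrenal cortex markers summed to 6.60 to 15.1 CPM in db/m and 3.61 to 4.34 CPM in db/db, with Hsd3b1 lower (adjusted p = 0.00401) and the defining Cyp11b1 and Cyp21a1 at 0 counts in every library. Urothelium markers summed to 30.7 to 83.6 and 1.35 to 43.2 CPM, red cell markers to 18.1 to 86.4 and 22.5 to 170 CPM, with overlap and no call in either list. The part of these cells in the results was not tested, and skeletal muscle markers summed to 0.119 to 0.838 CPM.

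Together the members took 0.383% to 0.451% of the counts in the db/m libraries and 0.316% to 0.340% in the db/db libraries. These are shares of the column totals. Scaled by those totals, the typical tested gene was lower in db/db too, by a median of -0.32 in log2 units. Members were also chosen on levels of this scale, so the shares alone do not show a fall particular to them. Of the 462, 287 reached the level in both groups, 136 in db/m only and 39 in db/db only. Among all other symbols, too, more reached it in db/m only (705) than in db/db only (158). The imbalance was smaller when the level was set on TMM-scaled CPM, with 89 members in db/m only and 59 in db/db only. Just inside the level lay Gm9925 and Gm30331, at 2.0 CPM of the column total in db/m, and just outside lay Gm17762 at 1.99 CPM in db/m and Gm10638 at 1.99 CPM in db/db.

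**Figure D1:**
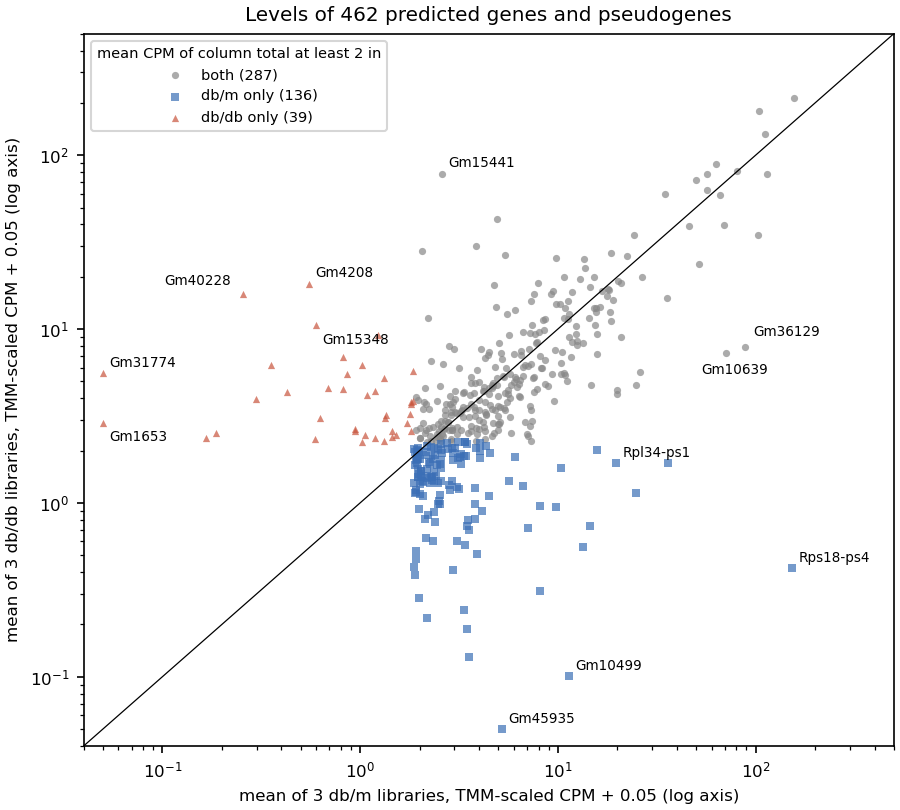
Mean of the 3 db/db libraries against the mean of the 3 db/m libraries for each of the 462 members, in TMM-scaled CPM plus 0.05 on log axes. Grey circles (287) reached 2 CPM of the column total in both groups, blue squares (136) in db/m only and red triangles (39) in db/db only, and the line marks equal levels.

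The sequences of processed pseudogenes show how little separates several members from a coding gene. Of 264 members with a transcript in GENCODE M21, 56 had a near copy. That is a protein-coding transcript of another locus, not of a Gm symbol, aligned on the same strand. The alignment had to reach 90% identity or more over 50% or more of the member. Copies among Gm symbols or noncoding transcripts were not searched for. The other 198 members were not in that annotation. In the pairs of lines here, each a stretch of 90 bases of the coding part as GENCODE M21 gives it, capitals mark the bases that differ between the member and its coding gene. Each is the stretch with the most differing bases in the aligned coding part, and they are shown because a fragment that holds no capital reads the same from either locus.
Rpl34-ps1: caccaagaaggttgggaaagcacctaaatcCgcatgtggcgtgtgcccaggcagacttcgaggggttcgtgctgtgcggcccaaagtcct
Rpl34: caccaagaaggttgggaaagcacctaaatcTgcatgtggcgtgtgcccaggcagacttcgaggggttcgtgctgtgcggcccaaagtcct
Gm6139: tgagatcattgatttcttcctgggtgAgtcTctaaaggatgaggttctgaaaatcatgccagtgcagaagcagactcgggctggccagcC
Rps2: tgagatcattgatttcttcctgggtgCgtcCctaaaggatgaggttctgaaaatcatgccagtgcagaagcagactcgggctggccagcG
Gm11703: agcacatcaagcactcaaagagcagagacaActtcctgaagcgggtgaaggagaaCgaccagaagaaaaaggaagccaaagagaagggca
Rpl21: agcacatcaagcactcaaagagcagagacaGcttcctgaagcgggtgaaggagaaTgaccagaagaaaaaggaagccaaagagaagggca
Gm12816: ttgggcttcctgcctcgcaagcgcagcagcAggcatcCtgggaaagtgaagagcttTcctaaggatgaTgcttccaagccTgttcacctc
Rpl3: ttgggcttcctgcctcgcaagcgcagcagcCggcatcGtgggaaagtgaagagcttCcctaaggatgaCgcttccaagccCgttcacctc
Rbm3-ps: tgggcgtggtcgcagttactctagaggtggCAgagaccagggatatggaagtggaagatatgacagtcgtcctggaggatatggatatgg
Rbm3: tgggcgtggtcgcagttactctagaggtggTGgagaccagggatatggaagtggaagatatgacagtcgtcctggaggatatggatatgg
Rpl34-ps1 differs from Rpl34 at 1 base of its stretch, Gm6139 from Rps2 at 3, Gm12816 from Rpl3 at 5, and the other pairs shown at 2 each.

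Rps18-ps4, a pseudogene of the small ribosomal subunit gene Rps18, stood out among the members at the level in db/m only. Its counts came to 212, 88.3 and 160 CPM in db/m replicates 1 to 3 and to 0.241, 0.436 and 0.438 CPM in db/db replicates 1 to 3. Rps18 itself was at 73.8, 184 and 57.5 CPM in the db/m and 312, 377 and 344 CPM in the db/db libraries (log2 fold change 1.71, SE 0.41, adjusted p = 0.0233). The 2 together summed to 259 ± 36.2 CPM in db/m and 345 ± 33.0 CPM in db/db. Within that sum the pseudogene took 74.2%, 32.4% and 73.6% in the db/m libraries, and in the db/db libraries 0.0772%, 0.115% and 0.127%. The pair was set by symbol, since no transcript of Rps18-ps4 was in GENCODE M21. Within db/m, replicate 2 had the least Rps18-ps4 and the most Rps18. If reads match both loci, the rise of Rps18 and the loss of Rps18-ps4 are not independent. The part of read mapping or of genetic background in this near on-off difference was not tested.

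Rpl34-ps1, 99.4% identical to the large ribosomal subunit gene Rpl34 over 354 bases, showed the same arrangement at a lower share. It was at 20.7, 19.4 and 19.2 CPM in db/m and 1.49, 1.98 and 1.46 CPM in db/db, and the groups did not overlap. Its share of the sum of the pair was 12.1%, 12.4% and 12.8% in db/m and 0.851%, 0.954% and 0.758% in db/db. Rpl34 rose from 139 ± 10.1 to 190 ± 16.3 CPM (log2 fold change 0.45, adjusted p = 0.0167).

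Gm11703 and Gm12816, at the level in db/m only and singled out after their values were seen, are copies of the ribosomal protein genes Rpl21 and Rpl3. Gm11703 took 3.25% ± 0.104 of its sum with Rpl21 in db/m and 0.315% ± 0.0753 in db/db. For Gm12816 and Rpl3 the shares were 0.999% and 0.125%. Both coding genes rose, Rpl21 with a log2 fold change of 0.95 (adjusted p = 0.000907) and Rpl3 with 0.71 (adjusted p = 0.00742). Of 83 ribosomal protein genes tested, 11 rose, which at 13.3% is close to the 13.1% of all genes tested, and none fell, against 10.8% of all genes. Scaled by total counts alone, 7 rose and 10 fell. Rps15a-ps5, also singled out after its values were seen, differed within the db/m group instead, at 0.145, 6.94 and 3.38 CPM, with 0 to 0.161 CPM in db/db.

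**Figure D2:**
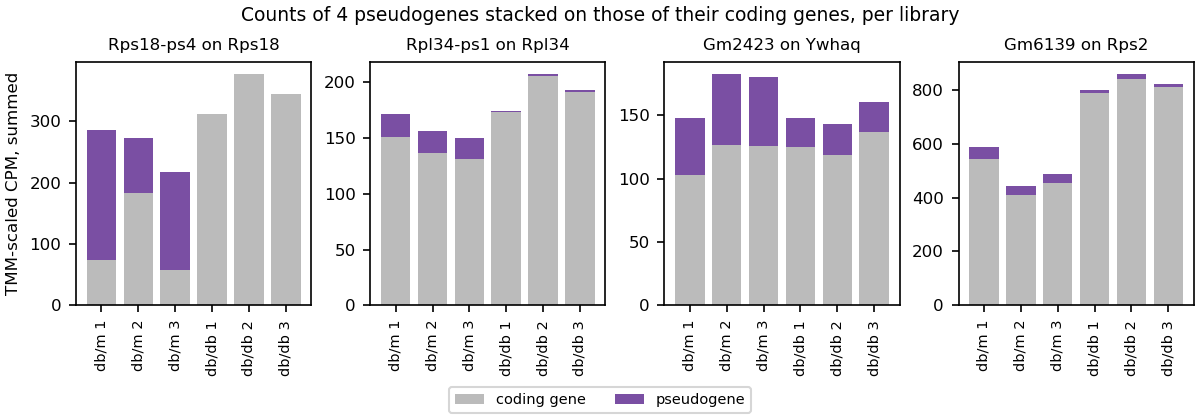
TMM-scaled CPM of 4 pseudogenes (purple) stacked on their coding genes (grey), 1 bar per library. The purple part is large in db/m and nearly gone in db/db for Rps18-ps4, and smaller in db/db for Rpl34-ps1, Gm2423 and Gm6139, while the grey part is higher in db/db for Rps18, Rpl34 and Rps2.

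Among the 287 members at the level in both groups, 33 were higher and 33 lower in db/db by edgeR's quasi-likelihood test at an adjusted p below 0.05, 11.5% in each direction. The background was 13.1% higher and 10.8% lower over all 16373 genes tested, and 15.6% higher and 11.3% lower over the 12210 at the level in both groups. The difference between the members' shares and these was not tested. In 58 members every db/db library was above every db/m library and in 63 below, 20.2% and 22.0%, against 26.0% and 21.6% of all genes at that level. The median log2 fold change was -0.04 over these members and -0.06 over all genes tested. Scaling by total counts alone moved the medians to -0.30 and -0.32 and the calls to 18 higher and 74 lower, against 7.04% higher and 33.5% lower of all genes at that level and 6.55% and 29.8% of all genes tested.

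By gene type the calls were spread. Of 197 long noncoding RNAs 24 rose and 18 fell (median log2 fold change -0.01), and of 62 protein-coding members 9 rose and 10 fell (median -0.11). Of the 20 that RefSeq types as pseudogenes, transcribed or not, none rose and 3 fell, named after their values were seen: Gm2423, Gm6139 and Gm39743. The median of these 20 was 0.19, opposite in sign to the calls. The counts depend on the annotation. GENCODE M21 types 27 members at this level as pseudogenes, among them Gm19774, which was called higher, and Ube2d-ps, which was called lower. Long noncoding RNAs that do have names, such as Malat1 and the Snhg hosts of small nucleolar RNAs, gave 2 higher (Snhg6 and Snhg18) and none lower of 34. RIKEN clone symbols at the same level gave 38 higher and 21 lower of 259.

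**Figure D3:**
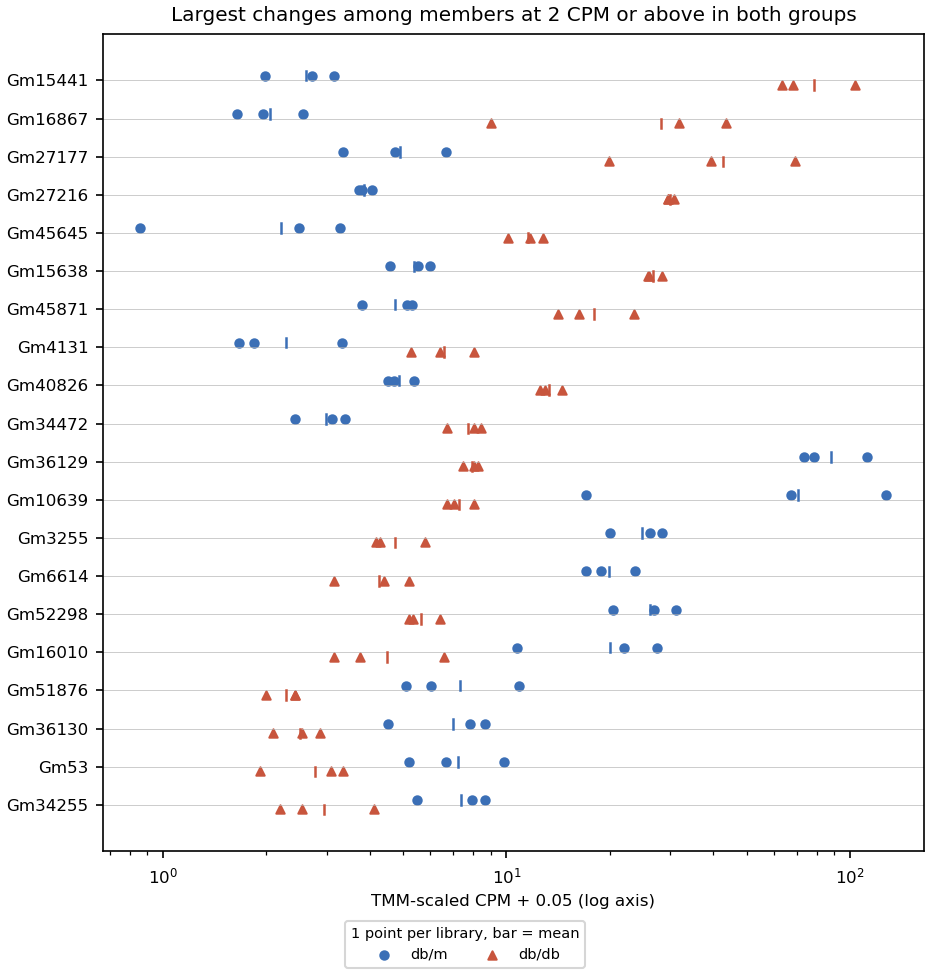
TMM-scaled CPM plus 0.05 (log axis) in each library for the 10 largest rises and 10 largest falls among members at 2 CPM in both groups, with a bar at each group's mean. Only members whose groups do not overlap could be chosen, so the blue db/m and red db/db points of the 20 are apart by selection.

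Gm15441, a long noncoding RNA on the strand opposite Txnip, had the largest rise among members at the level in both groups. It was at 3.09, 2.66 and 1.93 CPM in db/m and 63.1, 68.1 and 104 CPM in db/db, from 2.56 ± 0.585 to 78.3 ± 22.0 CPM (log2 fold change 4.93, SE 0.27, adjusted p = 8.99e-05). Txnip encodes thioredoxin-interacting protein, an inhibitor of thioredoxin that glucose induces. It was at 592 ± 142 CPM in db/m and 826 ± 93.2 CPM in db/db and did not pass the test (log2 fold change 0.48, SE 0.18, adjusted p = 0.097). The libraries mark strand, but whether the counting used it was not stated in these sources, so reads of overlapping opposite genes cannot be told apart.

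A pair of members lay opposite the Golgi nucleotidase genes Entpd4 and Entpd4b. Gm16867, which overlaps Entpd4, was at 2.51, 1.59 and 1.90 CPM in db/m and 8.99, 31.7 and 43.5 CPM in db/db (log2 fold change 3.82, SE 0.57, adjusted p = 0.00424). Gm27177, which overlaps Entpd4b, was at 4.69, 6.61 and 3.28 CPM in db/m and 39.3, 68.9 and 19.8 CPM in db/db (3.12, SE 0.48, adjusted p = 0.00475). Both members varied several-fold among the db/db libraries. Gm16867 also overlaps Gm21451 (0.70, adjusted p = 0.294) and Gm27177 also overlaps Loxl2 (0.32, adjusted p = 0.343), each on the opposite strand. Neither of these passed the test. Entpd4 went from 48.6 ± 0.450 to 265 ± 27.0 CPM and Entpd4b from 45.3 ± 2.24 to 247 ± 10.4 CPM, each with a log2 fold change of 2.45. As paralogs they may share reads, so how their counts were split is uncertain.

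Gm27216 was among the steadiest within a group, at 4.0, 3.67 and 3.74 CPM in db/m and 29.5, 30.7 and 29.5 CPM in db/db (log2 fold change 2.97, SE 0.10, adjusted p = 2.97e-05). Gm15638, opposite Phldb2 and Plcxd2, was nearly as steady at 4.54, 5.49 and 5.96 CPM in db/m and 25.9, 28.3 and 25.7 CPM in db/db (2.32, SE 0.13, adjusted p = 0.000127). Of its neighbours, Plcxd2, a phospholipase C-like gene, rose (0.95, adjusted p = 0.0287), and Phldb2 did not pass the test (-0.18, adjusted p = 0.176).

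Gm40826 overlaps Sugct, a gene of glutarate metabolism in mitochondria, and both rose. The member was at 4.65, 5.32 and 4.48 CPM in db/m and 12.9, 12.5 and 14.5 CPM in db/db (log2 fold change 1.46, SE 0.14, adjusted p = 0.00104). Sugct went from 77.5 ± 4.60 to 156 ± 3.59 CPM (1.01, adjusted p = 0.00041). Gm45645 opposite Erc2, Gm45871, Gm4131 and Gm34472 beside the 14-3-3 gene Ywhaz were the other large rises. Their log2 fold changes were 2.43, 1.93, 1.56 and 1.39, and no overlap between groups was a condition of the choice. Gm4131 no longer passed when replicate 2 of either group was left out (adjusted p = 0.0527 and 0.0528).

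Gm36129 had the largest fall among members at the level in both groups. This long noncoding RNA was at 112, 78.5 and 73.3 CPM in db/m and 7.99, 7.41 and 8.21 CPM in db/db (log2 fold change -3.48, SE 0.18, adjusted p = 7.7e-05). It overlaps Cys1, which encodes cystin, a protein of the primary cilium, and Cys1 rose (0.57, adjusted p = 0.0215). Next to it Gm52012, at the level in db/m only, was at 42.8, 33.5 and 31.5 CPM against 2.09, 1.51 and 1.35 CPM. The noncoding members at this site were thus lower in db/db while the coding gene was higher.

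Gm10639 and Gm3776 lie beside alpha class glutathione S-transferase genes and are near copies of Gsta2 and Gsta1, whose products conjugate glutathione to reactive compounds. Gm10639 was at 128, 67.5 and 16.9 CPM in db/m and 7.99, 6.66 and 7.01 CPM in db/db (log2 fold change -3.29, SE 0.65, adjusted p = 0.0123). Gsta2 followed the same order of libraries at 738, 449 and 160 CPM in db/m and 98.5, 81.0 and 90.2 CPM in db/db (-2.32, adjusted p = 0.0147). Gm3776, at the level in db/m only, was at 39.1, 23.1 and 12.1 CPM against 1.36, 0.792 and 1.10 CPM. The size rested in part on db/m replicate 1, without which the log2 fold change of Gm10639 was -2.53, and leaving out either db/db replicate 2 or 3 ended the call (adjusted p = 0.0539 and 0.0516).

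Neighbouring members Gm52298 and Gm3435 fell with Tcte3, a dynein light chain gene. Gm52298 was at 31.0, 26.9 and 20.4 CPM in db/m and 5.14, 5.31 and 6.35 CPM in db/db (log2 fold change -2.22, SE 0.18, adjusted p = 0.00052). Gm3435, which overlaps it, was at 23, 19.8 and 19.5 CPM and 8.75, 9.43 and 8.80 CPM (-1.21, SE 0.12, adjusted p = 0.000917). Tcte3 went from 30.2 ± 3.50 to 6.27 ± 0.593 CPM (-2.27, adjusted p = 0.000141). Gm3435 and Tcte3 kept the groups apart, as Gm52298 had to by the rule that named it.

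Gm3255 fell with 9030025P20Rik, which it overlaps. It was at 26.1, 28.3 and 19.9 CPM in db/m and 4.13, 4.24 and 5.73 CPM in db/db (log2 fold change -2.40, SE 0.19, adjusted p = 0.000478), and 9030025P20Rik went from 36 ± 2.36 to 9.99 ± 0.377 CPM (-1.85, adjusted p = 7.7e-05). These 2 adjoin the genes of the paragraph above, with Gm3448 between Gm3255 and Gm3435. Gm3435 is 99.7% identical to 9030025P20Rik over 1508 bases, so reads may be shared and these falls may not be independent. Gm6614 went against its surroundings. It was at 23.7, 17.0 and 18.8 CPM in db/m and 3.09, 4.36 and 5.15 CPM in db/db (-2.23, SE 0.22, adjusted p = 0.00106), while the organic anion transporter gene Slco1a6 beside it rose from 136 ± 7.02 to 259 ± 24.7 CPM (0.93, adjusted p = 0.00127). On its other side Slco1a1 had a far larger rise, from 0.278 ± 0.113 to 351 ± 41.5 CPM (10.3, adjusted p = 7.18e-06).

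Gm16010, opposite the ubiquitin ligase adaptor gene Spsb4, varied within db/m. It was at 10.6, 27.3 and 21.9 CPM in db/m and 6.54, 3.09 and 3.69 CPM in db/db (log2 fold change -2.17, SE 0.41, adjusted p = 0.0102). The other large falls were Gm51876 and its neighbour Gm53, Gm36130 and Gm34255, with log2 fold changes of -1.71, -1.40, -1.50 and -1.34. No overlap between groups was again a condition of the choice. Gm53 lost its call when replicate 2 of either group or db/db replicate 3 was left out (adjusted p = 0.0574 to 0.062), and Gm34255 without the same libraries (adjusted p = 0.0599 to 0.0718). Without db/m replicate 3 and db/db replicate 3, the libraries with the most adipocyte marker RNA, 15 members were called higher and 19 lower. Gm4131, Gm16010, Gm51876, Gm53 and Gm34255 then missed the threshold. The share of all genes called in that fit is not given here.

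Members called at both levels often had a neighbour called in the same direction. Of the 65 with a position in RefSeq, 34 (52.3%) had an adjacent tested gene called the same way and 10 (15.4%) one called the other way. Among 3208 other called symbols at the level in both groups the shares were 30.2% and 18.7%. Neighbours can share reads, and the difference between these shares was not tested.

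Most members with a near copy had a fold change of the same sign as the coding gene. Of 35 members at the level in both groups that were paired with 31 coding genes, 28 shared its sign, and 23 lay within 0.25 of it on the log2 scale. The share of the pair taken by the member overlapped between groups in 25 pairs, was lower in every db/db library in 9 and higher in 1. That 1 was Gm3435 with 9030025P20Rik, at a mean share of 36.5% in db/m and 47.4% in db/db. The 9 are not independent, since Gm6139, Gm10420 and Gm45855 were all set against Rps2, which rose (log2 fold change 0.79). Gm45855 had a positive value itself (0.32), and its share was lower beside the larger rise of Rps2. No such shares were taken for other pairs of genes, so these counts have no background here. Where reads can match both loci, the values of member and coding gene are uncertain and not independent. None of the 3 ribosomal -ps members and 1 of the 9 other -ps members at this level passed the test.

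That member was Ube2d-ps, named after a ubiquitin-conjugating enzyme family, at 19.2, 19 and 17.5 CPM in db/m and 9.15, 12.2 and 12.1 CPM in db/db (log2 fold change -0.73, SE 0.14, adjusted p = 0.0107). The groups did not overlap, and the adjusted p was 0.054 without db/m replicate 3 and db/db replicate 3. Rbm3-ps and Rbm3, a cold-induced RNA-binding protein gene, had log2 fold changes of -0.56 (adjusted p = 0.0715) and -0.58 (adjusted p = 0.0253). The values were -0.39 (adjusted p = 0.0682) and -0.46 (adjusted p = 0.0462) for Rybp-ps and the Polycomb subunit gene Rybp. For Tmed10-ps and the vesicle cargo receptor gene Tmed10 they were 0.40 (adjusted p = 0.0692) and 0.30 (adjusted p = 0.0265). Llph-ps2 and Llph gave 0.37 (adjusted p = 0.0766) and 0.29 (adjusted p = 0.0358), and Gstp-ps and Gstp2 0.45 (adjusted p = 0.0624) and 0.47 (adjusted p = 0.115). In these 5 pairs the values differed by little, and the pseudogenes did not pass the test.

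Some members, picked after their values were seen, moved apart from the coding gene. Gm2423, 99.7% identical to the 14-3-3 gene Ywhaq, was at 44.4, 56.4 and 54.0 CPM in db/m and 23.2, 24.2 and 23.9 CPM in db/db (log2 fold change -1.12, SE 0.11, adjusted p = 0.000961). Ywhaq was at 118 ± 13.3 and 126 ± 9.26 CPM (0.10, adjusted p = 0.539). The share of Gm2423 in the pair was 30.1%, 30.9% and 30.0% in db/m and 15.7%, 17.0% and 14.9% in db/db.

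Gm6139, 98.9% identical to the small ribosomal subunit gene Rps2, was at 43.6, 31.5 and 31.7 CPM in db/m and 13.6, 18.5 and 13.3 CPM in db/db (log2 fold change -1.23, SE 0.18, adjusted p = 0.00433). Rps2 rose from 470 ± 67.3 to 813 ± 27.1 CPM (0.79, adjusted p = 0.00422). Other copies of Rps2 did not pass the test, with Gm10420 at -0.14 (adjusted p = 0.665) and Gm45855 at 0.32 (adjusted p = 0.261). In the other direction Gm4737 rose with its coding gene Ahcy, the enzyme that splits S-adenosylhomocysteine (0.49, adjusted p = 0.0108, and 0.45, adjusted p = 0.0114), though Gm4737 missed the threshold with replicate 3 of both groups left out (adjusted p = 0.0787). Gm19774 and Ost4, a subunit of the oligosaccharyltransferase, did so too (0.78, adjusted p = 0.0359, and 0.72, adjusted p = 0.0013), but Gm19774 missed the threshold when any 1 library was left out (adjusted p = 0.0631 to 0.104).

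**Figure D4:**
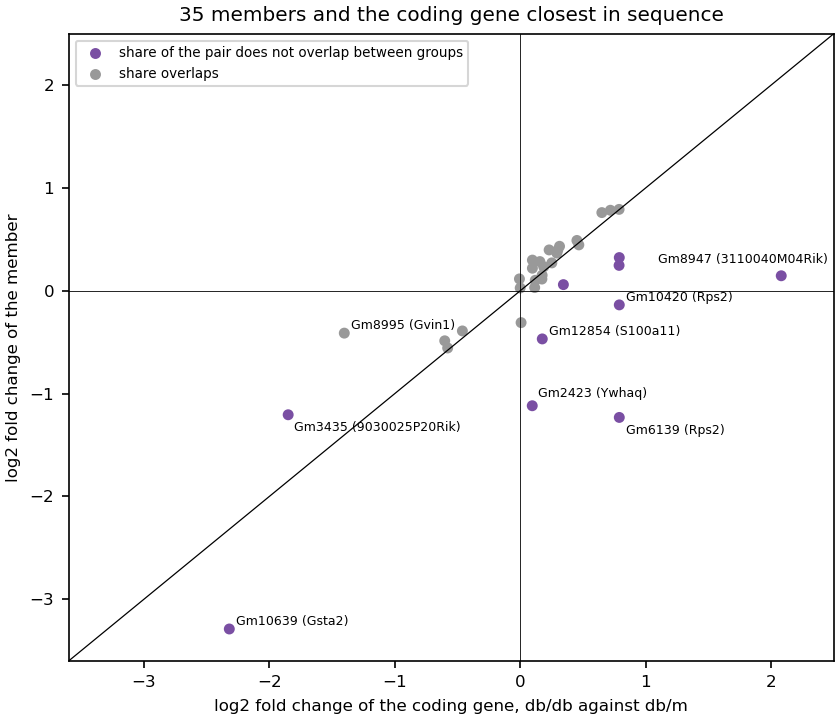
log2 fold change (db/db against db/m) of 35 members against that of the paired coding gene, with the diagonal of equal change. A -ps member was paired by symbol where that gene was counted, and any other member with the coding gene closest in sequence. Rps12-ps13 and Rps12-ps18 are thus set against Rps12, though Rps12-ps3 was closest in sequence. Purple points, whose share of the pair does not overlap between groups, lie mostly under the diagonal, among them Gm6139 (-1.23 against 0.79 for Rps2) and Gm2423 (-1.12 against 0.10 for Ywhaq). Gm6139, Gm10420 and Gm45855 are set against the same gene, Rps2.

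Members at the level in 1 group only had to differ by the rule, so their values are a description. In db/m only, 15 of 136 had a mean at least 10 times that in db/db and 78 a mean less than 2 times it. In db/db only, the counts were 10 and 7 of 39. Once the highest library was left out, the mean of the remaining libraries was below 2 CPM for 65 of the 136 and 3 of the 39. These counts use TMM-scaled CPM, while membership used CPM of the column total. The change of scale therefore enters them beside the loss of a library. Gm30331, for example, had a TMM-scaled mean of 1.83 CPM over all db/m libraries. The highest library of the 136 was db/m replicate 1 for 61 members, db/m replicate 2 for 57 and db/m replicate 3 for 18. On the same TMM scale every db/m library was at 2 CPM or above for 49 of the 136. Every db/db library was so for 30 of the 39.

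**Figure D5:**
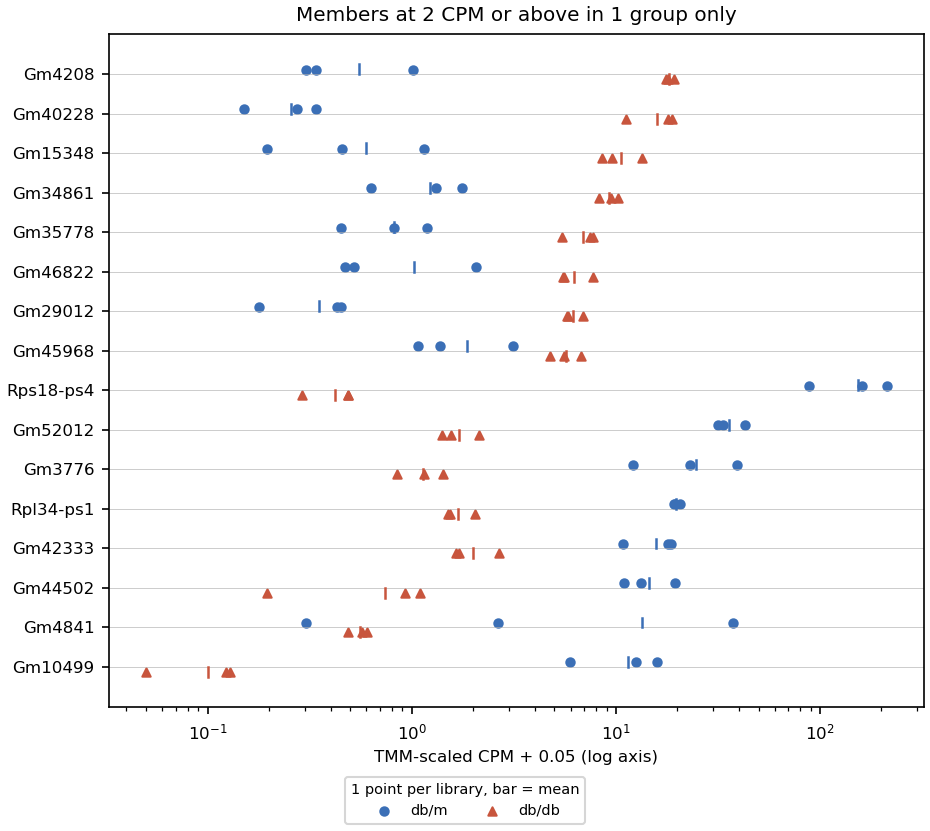
TMM-scaled CPM plus 0.05 (log axis) in each library for the 8 members with the highest mean among those at 2 CPM in db/db only and the 8 among those in db/m only, with a bar at each group's mean. The groups are apart for all but Gm4841, whose db/m libraries lie at 0.254, 37.4 and 2.61 CPM.

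Gm4208 led the members at the level in db/db only, at 17.9, 19.3 and 17.6 CPM in db/db and 0.291, 0.253 and 0.966 CPM in db/m. Gm40228 was at 17.9, 18.7 and 11.2 CPM against 0.291, 0.101 and 0.225 CPM. It lies beside Gm12816, the copy of Rpl3 described above, which was at the level in db/m only. Adjacent members at this place thus went in opposite directions, though Gm12816 may share reads with Rpl3. On the other side of Gm40228, Trabd2b rose as well, from 81.9 ± 16.9 to 234 ± 33.6 CPM (log2 fold change 1.51, adjusted p = 0.00171).

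Gm15348 and its neighbour Gm39133 went together. The former was at 13.4, 9.55 and 8.54 CPM in db/db and 0.145, 0.405 and 1.09 CPM in db/m, the latter at 3.65, 3.76 and 4.31 CPM and 0.109, 0.278 and 0.354 CPM. Gm29012 and Gm41925, which overlap, were another such pair, with Gm29012 at 5.74, 6.85 and 5.80 CPM in db/db and 0.400, 0.380 and 0.129 CPM in db/m. Gm34861 overlaps Agps, an enzyme of ether lipid synthesis in peroxisomes, and was at 8.19, 9.39 and 10.2 CPM in db/db and 0.581, 1.27 and 1.71 CPM in db/m. Agps went from 63.3 ± 14.4 to 368 ± 21.4 CPM (log2 fold change 2.54, adjusted p = 0.000228). Ratios of db/db to db/m were 8.87 for Gm35778, 6.38 for Gm46822 and 3.13 for Gm45968.

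A few members had no count at all in a group, and were singled out for that. Gm31774 was at 5.26, 5.15 and 6.24 CPM in db/db from 432 counts, which is at least 182-fold higher than 3 counts over the db/m group allow. Gm1653 had 221 counts in db/db and was at least 93.2-fold higher. Gm45935 had no count in db/db and was at 6.03, 6.76 and 2.77 CPM in db/m, with 519 counts, so that db/db was at least 137-fold lower. The strain of the mice is not in the labels, and the part of genetic background or of read mapping in these near on-off differences was not tested.

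In db/m only, Gm42333 was at 17.9, 10.7 and 18.6 CPM against 1.65, 2.62 and 1.61 CPM in db/db. Gm44502, listed as a readthrough of Chkb and Cpt1b, was at 19.3, 10.9 and 13.2 CPM against 1.04, 0.872 and 0.146 CPM. Neither Chkb, a choline kinase gene, nor Cpt1b, the muscle form of carnitine palmitoyltransferase, passed the test. Among members with class I histocompatibility gene names as synonyms or symbols, Gm10499 was at 5.92, 15.8 and 12.4 CPM in db/m and 0, 0.0792 and 0.0730 CPM in db/db. Its neighbour Gm8909 was at 1.64, 4.81 and 3.86 CPM against 0, 0.198 and 0.219 CPM, and H2-T-ps at 2.29, 9.92 and 4.57 CPM against 1.36, 1.27 and 1.2 CPM. In all 3, replicate 2 was the highest of db/m and replicate 1 the lowest. Other members close to class I genes were not low in this way. Gm7030, on the other side of Gm10499 and closest to H2-K1, was at 0.909, 3.77 and 1.22 CPM in db/m. In db/db it was at 2.45, 1.94 and 2.56 CPM (log2 fold change 0.22, adjusted p = 0.784). Gm11127, closest to H2-D1, had a log2 fold change of -0.39 and did not pass the test.

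Members that carry names of interferon-inducible GTPases as synonyms, proteins that act on vacuoles holding microbes, set db/m replicate 2 apart. Gm12250 was at 0.436, 25.2 and 3.64 CPM in db/m and 1.0, 0.594 and 1.10 CPM in db/db. Gm4841 was at 0.254, 37.4 and 2.61 CPM in db/m and 0.522, 0.555 and 0.438 CPM in db/db, and Gm4951 at 0.618, 26.1 and 4.28 CPM and 1.08, 1.86 and 1.64 CPM. Gm12185 was at 0.254, 8.88 and 0.869 CPM and 0.602, 0.634 and 0.329 CPM. In each of the 4 the level in db/m came mainly from 1 library, and db/m replicate 1 was below all db/db libraries. Iigp1, a named gene of the same family, was at 4.14, 509 and 37.8 CPM in db/m and 5.07 to 9.02 CPM in db/db. T cell markers summed to 1.64, 6.45 and 6.76 CPM in db/m and 2.81 to 3.39 CPM in db/db, and macrophage markers to 34.5, 78.5 and 83.1 CPM and 73.9 to 96.2 CPM, and the part of immune cells in this pattern was not tested.

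The starts of Gm12250 and Gm12185, picked for a match to the motif described next, are shown. Those of Gm4841 and Gm4951 were not examined singly here, so nothing is said of how many of the 4 hold the motif. Promoter sequences are from RefSeq (GRCm38.p6), and capitals mark GAAANNGAAA, a spaced pair of GAAA as interferon-response elements have, searched on both strands. It was found in 1131 of 32851 promoters of 300 bases (3.44%). The stretch of Gm12250 is chr11:58183727-58183831 on the + strand and holds 2 matches, both on the reverse strand, and that of Gm12185 is chr11:48927223-48927282 on the - strand with 1 match.
Gm12250: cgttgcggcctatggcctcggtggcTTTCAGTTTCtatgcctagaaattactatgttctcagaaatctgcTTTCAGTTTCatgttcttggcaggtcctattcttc
Gm12185: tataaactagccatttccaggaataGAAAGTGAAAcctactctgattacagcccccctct
A match of letters is a description of the sequence and not a measured binding site.

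Among members at the level in both groups, the 4 with the highest means did not pass the test. Gm39079, which overlaps the medium-chain acyl-CoA synthetase gene Acsm1, was at 253, 88.9 and 129 CPM in db/m and 195, 230 and 215 CPM in db/db (log2 fold change 0.44, adjusted p = 0.369). Without db/m replicate 1 its value was 0.98 (adjusted p = 0.0129). Gm10681 and Gm4450, near-identical copies of the hydroxysteroid dehydrogenase gene Hsd3b4, were at 60.4, 152 and 100 CPM and at 64.7, 161 and 110 CPM in db/m. In db/db they were at 211, 160 and 170 CPM (0.79, adjusted p = 0.0979) and at 156, 120 and 122 CPM (0.25, adjusted p = 0.572). Without db/m replicate 2 Gm10681 was at 1.17 (adjusted p = 0.0238). Gm10681 is 100% identical to Hsd3b4 over 1610 bases and took 49.5% to 49.7% of the sum of the pair in every library. Hsd3b4 was at 61.1, 155 and 102 CPM in db/m and 215, 163 and 172 CPM in db/db. The values of Gm10681 can therefore not be told from those of Hsd3b4. Gm10768 was at 156, 124 and 62.5 CPM in db/m and 84.0, 71.8 and 79.2 CPM in db/db (-0.54, adjusted p = 0.212), and at -0.83 (adjusted p = 0.00906) without db/m replicate 3.

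The db/m libraries differed among themselves in other members as well, picked after their values were seen. Gm43305 was at 13.0, 168 and 129 CPM in db/m and 26.4, 34.3 and 43.7 CPM in db/db. Gm19950 was at 28.7, 0.582 and 11.0 CPM in db/m, against 25.4, 23.3 and 26.9 CPM in db/db. In both, db/m replicate 1 and db/m replicate 2 stood on opposite sides of the db/db libraries.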

How the data were processed

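Poly(A)-selected RNA of whole kidney was sequenced from strand-specific libraries, per the labels' protocols. The deposited table gives raw counts, whole numbers for each gene symbol in each library. The submitters' processing notes list HISAT2, StringTie, SAMtools, DESeq2, fastp and FastQC. How these were run, their versions, the genome build and the annotation are not stated in the labels or the table (not given in the sources used here). Counts of 2 occurred 4164 times and counts of 1 only 1318 times, so 1 fragment may stand for several counts, and counting limits may be too narrow.

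Libraries were grouped by genotype label. The filter on low counts (filterByExpr) kept 16373 genes and dropped 1 member, Rps15a-ps5. TMM factors were 0.901 to 1.12. Groups were compared with edgeR's quasi-likelihood test (edgeR 4.0.16, R 4.3.3) without covariates, with Benjamini-Hochberg adjustment over all genes tested, and an adjusted p below 0.05 was a call. The SE is the size of the log2 fold change divided by the square root of F. The script was tested on simulated counts.

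The members and lists were chosen with earlier results of these data known. Named are the 10 largest called rises and falls without overlap among members at 2 CPM in both groups, the 8 with the highest mean in each direction among members in 1 group only, the 6 -ps members at the level in both groups with the smallest p, the 6 members with the highest mean, those next to the level, and their coding genes and neighbours. Members outside this rule are said in the text to have been picked after their values were seen, and so were the class I and GTPase members. Gene types and order come from RefSeq (GRCm38.p6), strands and transcripts from GENCODE M21, and near copies from BLAST. Alternatives were DESeq2 1.42.0 (Wald test, and its size factors in edgeR), total counts only, other filters, other levels of membership, the replicate number as a block and leaving out each library.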

Additional observations from a re-analysis of the deposited data

How the results depend on the processing

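Against 33 members called higher and 33 lower, DESeq2's size factors, its Wald test, no filter, a filter at 1 CPM in 3 libraries, a level of 1 CPM and a level on TMM-scaled CPM (chosen after seeing the data) gave counts within 1.5 times these. Total counts only gave 18 and 74, a level of 5 CPM in each group 17 and 14, and a level of 2 CPM over all libraries 53 and 63. Leaving out 1 library gave 19 to 35 higher and 14 to 38 lower. Counts lower by over 1.5 times in at least 1 direction came without db/m 2 (21 and 18), db/db 1 (22 and 19), db/db 2 (19 and 14) and db/db 3 (20 and 15). Without db/m 3 the counts were 23 and 38. Leaving out db/m 3 and db/db 3 together, chosen after seeing the data, gave 15 and 19. Fewer libraries enter each of the fits with libraries left out. The share of all genes called is given above for total counts only. For the other settings, and for the replicate block below, it is not given here. A loss of calls by the members can therefore not be told from a loss over all genes.

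Replicate numbers did not pair the libraries, since deviations of same-numbered libraries correlated at -0.15, 0.06 and 0.14. With the replicate number as a block, 19 were called higher and 16 lower, and Gm53 (adjusted p = 0.0686) and Gm34255 (adjusted p = 0.0597) were among the named members that missed the threshold.

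Over 468 repeats for 36 named members, 421 kept direction and side of the threshold, 29 lost it, 12 gained it and 6 reversed, all for members that did not pass the test. Gm4450 was at -0.020 with total counts only, and at -0.014 (without db/m 1) to 0.61 with 1 library left out. Tmem250-ps, at 0.02 (adjusted p = 0.912), was at -0.24 with total counts only (adjusted p = 0.0475), and with 1 library left out at -0.030 to 0.097, below 0 without db/m 2 (-0.015), db/m 3 (-0.0066) or db/db 2 (-0.030). The causes were not tested. Members near 2 CPM rest on the fewest counts, and which size of change this depth can show there was not tested.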
